A study of Mus musculus with 23 samples.

Results

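WNT ligands, receptors, antagonists and feedback genes were followed across 23 uterine horns of C57BL/6 mice. The genes were taken by symbol: the Wnt, Frizzled (Fzd), secreted Frizzled-related (Sfrp), Dickkopf (Dkk1 to Dkk4), R-spondin (Rspo1 to Rspo4) and Lgr4 to Lgr6 families, the co-receptors Lrp5 and Lrp6, and Axin2, Znrf3, Rnf43, Lef1, Wif1 and Notum. Of 52 mouse symbols that the rule covers, 38 had a row in the count table of 18682 features, and 37 of those passed the filter on low counts. Sfrp5 did not pass it. The 14 symbols with no row in the table used here were Wnt1, Wnt2, Wnt3, Wnt3a, Wnt8a, Wnt8b, Wnt9b, Wnt10a, Wnt10b, Fzd9, Dkk1, Dkk4, Rspo2 and Rspo4, and these were not analysed.

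WNT proteins are secreted lipid-modified ligands that bind Frizzled receptors and, in the canonical branch, the co-receptors LRP5 and LRP6. The receptor complex then keeps β-catenin from being degraded, and β-catenin with TCF/LEF factors switches on target genes, among them feedback inhibitors of the pathway itself. In the mouse uterus WNT signalling is known for the growth of endometrial glands, for patterning of the luminal epithelium and for the stromal response to implantation.

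The series asked whether a hydrogel carrying human endometrial organoids helps an injured uterus to recover in immunocompetent mice. There were 6 HG+ORG horns (hydrogel with human endometrial organoids), 6 HG horns (hydrogel alone), 5 PBS horns (saline) and 6 SHAM horns. HG+ORG, HG and PBS horns had been damaged with ethanol, received the injection 4 days later and were collected 2 weeks after it, and they are called injured here. The labels do not say what was done to the SHAM horns. The endometrium was pressed out of each horn by hand and its poly(A) RNA was sequenced. Only mouse alignments were counted, so transcripts of human organoid cells cannot be told apart from mouse ones. The labels do not tie horns to animals, some horns may come from the same mouse, and the p-values below measure the spread between horns.

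Libraries held between 7920918 and 14902952 counts, with a median of 12701407, and WNT genes took 0.0351% to 0.291% of them. Epithelial transcripts were present in every horn: Epcam and Krt8 reached at least 139.6 and 139 CPM. CPM here are counts scaled by TMM to a common library total. HG+ORG horn 18 stood apart, with an epithelial score of 6.34 where the other 22 horns had at least 7.89, and with a macrophage score of 10.0 where they had at most 7.15 (scores are mean log2 CPM of marker lists). Its Esr1 level, the estrogen receptor, was 14.0 CPM, against at least 268 CPM in the others. SHAM horns 5 and 6 were the most alike of 55 pairs within groups, their counts giving 2.68 as chi-square over its degrees of freedom where the median pair gave 107.7. They still differed beyond sampling noise and were counted separately. The smooth muscle score had medians of 2.10 in HG+ORG, 5.11 in HG, 2.75 in PBS and 2.38 in SHAM horns. Its markers are not confined to the myometrium, and which cells it reflects was not tested. The stromal score had medians of 4.45, 7.44, 4.37 and 4.36 in the same order of groups. The adipocyte score, from fat cell markers, ran from -2.49 in PBS horn 9 to 9.62 in HG horn 12. SHAM horns 5 and 6 had 7.48 and 7.07. In bulk tissue, fewer cells of a type and less RNA per cell cannot be told apart.

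Compared per kilobase of exon, which allows levels of different genes to be set side by side, Wnt7a was the most abundant WNT gene, with a median of 93.8 CPM per kb over the 23 horns. The receptors Fzd6, Fzd10 and Fzd1 followed at 49.9, 31.1 and 29.5 CPM per kb, then Wnt5a at 16.7 and the feedback gene Notum at 16.5 CPM per kb. Among the Lgr receptors Lgr4, which ran from 14.6 to 147 CPM over the horns, led with 12.9 CPM per kb, Lgr5 had 7.05 and Lgr6 had 0.0440. The secreted antagonists were mostly low: Sfrp1 had 3.45, Dkk3 2.02, Sfrp2 1.43, Sfrp4 0.354, Dkk2 0.222 and Sfrp5 0.0393 CPM per kb. Horns of 1 group differed widely for most of these genes. Lrp6 was the steadiest of the 37 tested genes, with an SD of 0.17 in log2 CPM over the 23 horns, and Wif1 the least steady, with an SD of 3.22.

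**Figure D1:**
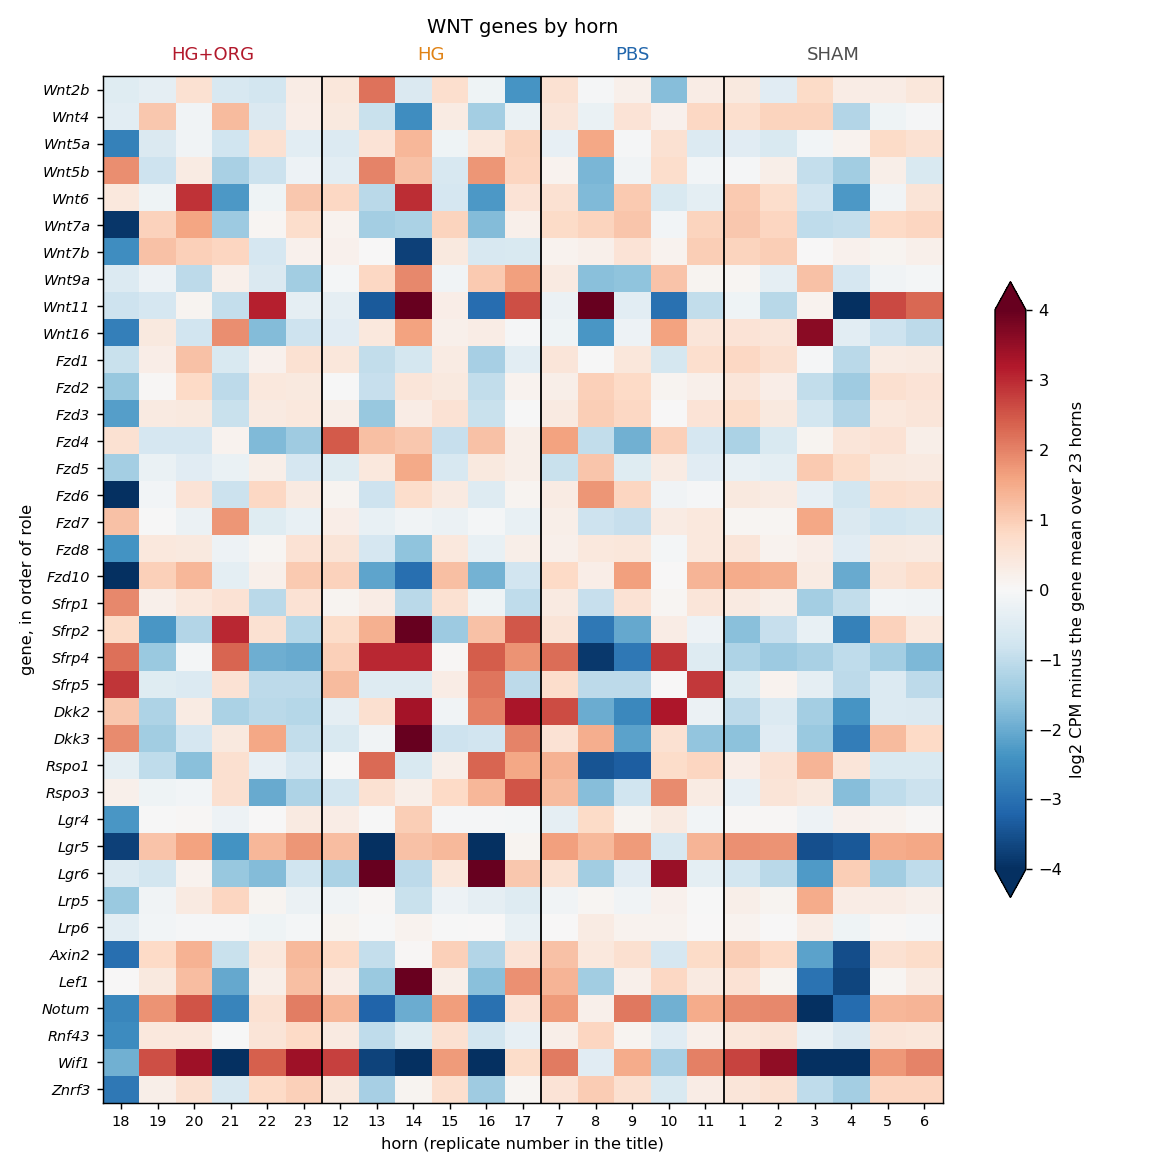
Each WNT gene (rows, ordered by role) in each horn (columns, by group: HG+ORG, HG, PBS, SHAM), coloured by log2 CPM minus the mean of that gene over the 23 horns, with a colour scale limited to ±4. The rows of Lgr5, Notum and Wif1 show dark blue cells in HG+ORG, HG and SHAM horns and a paler blue cell in PBS horn 10, while the row of Lrp6 is almost without colour.

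The secreted antagonists Sfrp4 and Dkk2 were higher in every HG horn than in any SHAM horn, and the co-receptor Lrp5 was lower in every HG horn, where 1.43% of all features separated these groups in either direction. For Dkk2 the gap was narrow, with the lowest HG horn at 0.959 CPM and the highest SHAM horn at 0.822 CPM. In HG horns 8 WNT genes were higher and 1 lower than in SHAM horns at an unadjusted p under 0.05 (edgeR's quasi-likelihood test): Lgr6, Dkk2, Sfrp4, Sfrp2, Dkk3, Wnt5b, Rspo3 and Lef1 higher, and Lrp5 lower. That is 9 of 37, where 11.3% of all 17708 tested features passed the same limit, 9.15% higher and 2.12% lower. In HG+ORG horns 8 of 37 were lower than in HG horns and 0 higher, where 9.81% of all features passed, 4.63% lower and 5.18% higher: Lgr6, Wnt9a, Fzd4, Dkk2, Rspo1, Rspo3, Wnt5a and Fzd5. That no gene was higher depended on HG+ORG horn 18. Lgr6, Wnt9a, Fzd4, Dkk2, Rspo1 and Rspo3 were lower at this limit with or without that horn. Without it Wnt4, Wnt7b, Lrp5 and Rnf43 were higher at the same limit (log2 fold 0.95, 0.94, 0.54 and 0.59). Wnt5b and Dkk3 then joined the lower genes, while Wnt5a and Fzd5 no longer passed. After Benjamini-Hochberg adjustment edgeR called 0 WNT genes and 0 of all features (0.0%) in any of the 7 comparisons or in the test for any difference among the 4 groups. The smallest adjusted p of a WNT gene was 0.146, for Lgr6 in the test among the 4 groups. Lgr6 was low, with medians of 0.212 CPM in SHAM and 0.289 CPM in HG+ORG horns. With HG and SHAM horns, or HG+ORG and HG horns, fitted alone it did not pass the filter on low counts. Its tests thus drew on the filter over all 4 groups, which its higher HG and PBS horns helped it to pass.

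Other tools and fits called a few. DESeq2 called 281 features between HG and SHAM horns, among them Lgr6, Dkk2 and Sfrp4 (adjusted p = 0.0157, 0.0213 and 0.0174), and 163 features between HG+ORG and HG horns, among them Lgr6 (adjusted p = 0.0082). An edgeR fit of the HG and SHAM horns alone called 386 features, among them Sfrp4 and Dkk2 (adjusted p = 0.0205 and 0.0402). Lgr6 did not pass the filter on low counts in that fit and was not tested there. limma-voom called 0 features in every comparison. The median log2 fold of the 37 WNT genes lay near 0 in each of these contrasts, at -0.02 for HG over SHAM and -0.07 for HG+ORG over HG, beside 0.00 and 0.04 for all features.

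**Figure D2:**
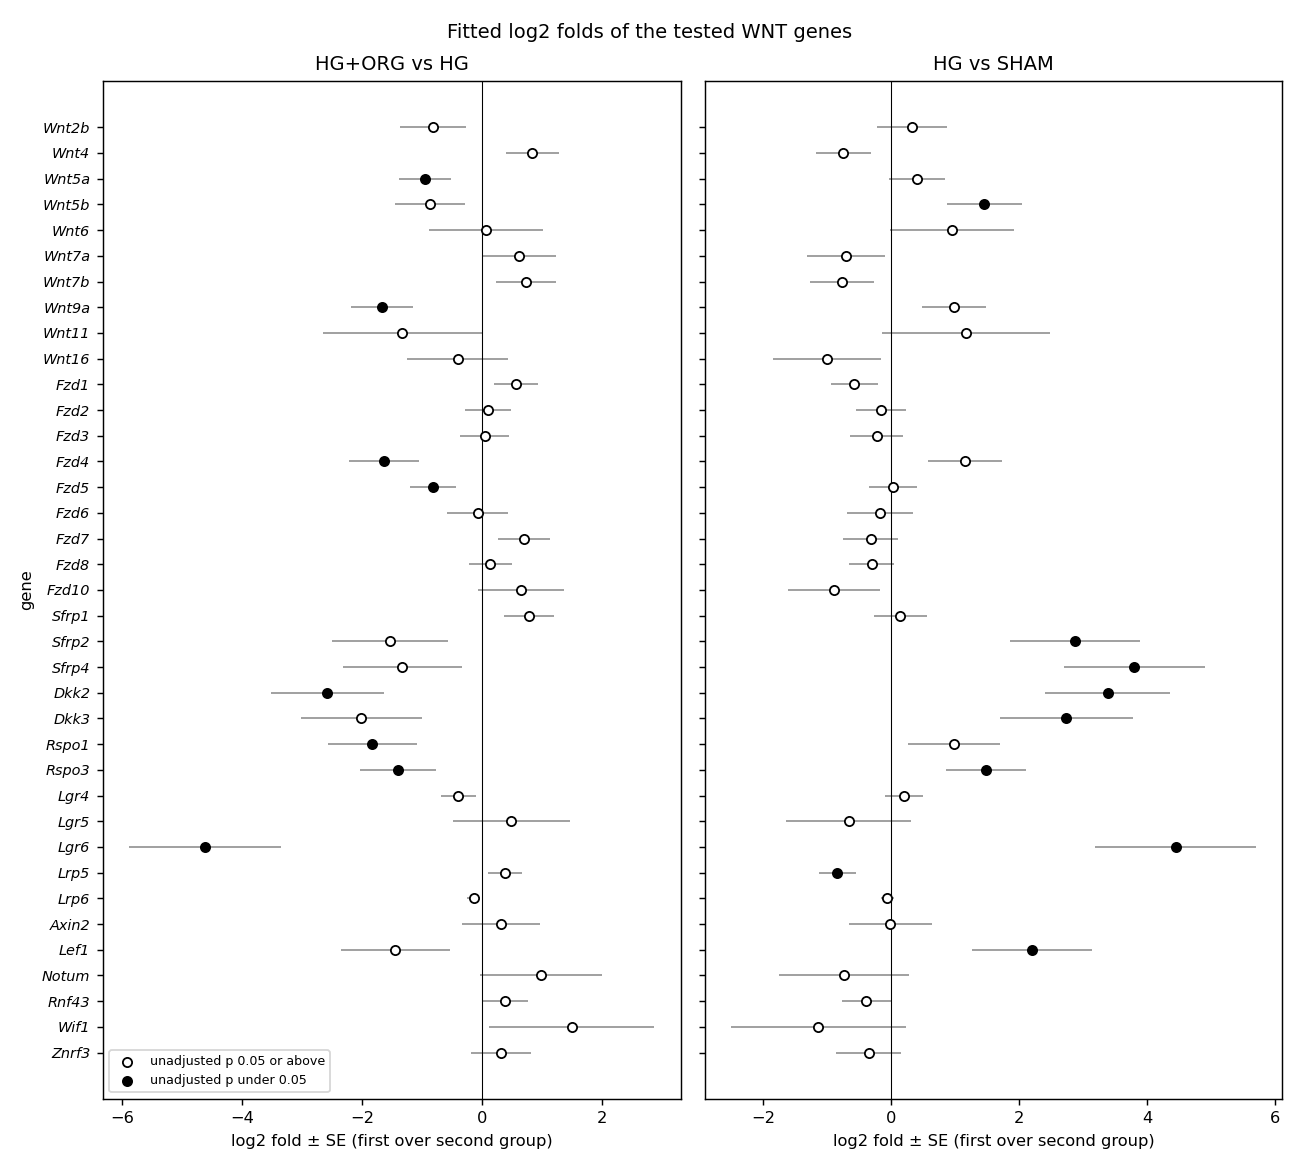
Fitted log2 fold (points, x axis) with its standard error (lines) for each of the 37 tested WNT genes (y axis), HG+ORG over HG on the left and HG over SHAM on the right; filled points had an unadjusted p under 0.05 in edgeR. In the left panel all 8 filled points lie below 0, and in the right panel 8 lie above 0 and Lrp5 below.

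In the remaining comparisons few WNT genes passed the unadjusted limit. Between HG+ORG and SHAM horns 2 of 37 passed, Sfrp4 and Sfrp1, both higher, where 9.91% of all features did, 8.09% higher and 1.82% lower. Between HG+ORG and PBS horns 3 passed, Lrp6, Dkk2 and Lgr6, all lower, beside a background of 6.09%, of which 1.23% lower and 4.86% higher. Between HG and PBS horns 2 passed, Sfrp2 and Dkk3, both higher, beside 3.37%, of which 2.38% higher and 0.988% lower. Between PBS and SHAM horns 2 passed, Dkk2 and Sfrp4, both higher, beside 2.17%, of which 1.52% higher. With all injured horns set against SHAM, 4 passed, Sfrp4, Dkk2 and Lgr6 higher and Lrp5 lower, beside 7.58%, of which 5.99% higher and 1.59% lower. In the test for any difference among the 4 groups 7 passed, beside 10.1%: Lgr6, Dkk2, Sfrp2, Sfrp4, Wnt9a, Dkk3 and Lrp5. These comparisons share groups, so the same horns stand behind several of them.

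Among the 10 measured ligands, Wnt7a, which is made by uterine epithelium and needed for gland formation, did not pass the unadjusted limit in any comparison. It ran from 12.3 through a median of 246 to 554 CPM in HG+ORG horns and from 54.9 through 139 to 337 CPM in HG horns. The 5 PBS horns had 311, 339.8, 398, 171 and 340.4 CPM, and SHAM horns ran from 90.6 through 323 to 389.7 CPM. All 4 ranges overlapped, and low horns occurred in each group but PBS, whose lowest horn had 171 CPM. Wnt7b, an epithelial ligand, had 7.67, 63.9 and 98.7 CPM as the lowest, median and highest HG+ORG horn, 3.08, 36.3 and 56.4 CPM in HG horns, and 43.7, 49.5 and 85.3 CPM in SHAM horns. Its PBS horns had 48.2, 49.6, 63.8, 48.3 and 85.9 CPM. In each hydrogel group 1 horn, HG+ORG horn 18 and HG horn 14, lay far below the rest.

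Wnt4, which is needed for Müllerian duct formation and for stromal decidualization, had 31.1, 48.6 and 112 CPM as lowest, median and highest in HG+ORG horns, 8.17, 31.9 and 59.9 CPM in HG horns and 20.2, 58.7 and 85.7 CPM in SHAM horns. Its 5 PBS horns had 64.7, 38.1, 66.8, 52.0 and 81.9 CPM. The ranges overlapped throughout. Wnt5a, a stromal ligand of the β-catenin-independent branch, had 21.4, 99.6 and 215 CPM in HG+ORG horns, 96.6, 199 and 357 CPM in HG horns and 92.3, 143 and 242 CPM in SHAM horns. PBS horns had 113, 415, 137, 217 and 96.4 CPM. In HG+ORG over HG horns the log2 fold of Wnt5a was -0.95 (SE 0.44; edgeR adjusted p = 0.487) and 3 of 6 HG+ORG horns lay below the lowest HG horn, horn 18 farthest. Without HG horn 14 that fold was -0.72, and without HG horn 14 and HG+ORG horn 18 together it was -0.53. It did not pass the unadjusted limit in either case.

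Wnt5b, a relative of Wnt5a, had 0.660, 1.29 and 7.18 CPM in HG+ORG horns, 1.13, 3.92 and 7.80 CPM in HG horns and 0.617, 1.49 and 2.23 CPM in SHAM horns, beside 2.08, 0.404, 1.69, 3.09 and 1.69 CPM in PBS horns. In 4 of 6 HG horns it lay above the highest SHAM horn. The log2 fold of HG over SHAM was 1.46 (SE 0.59; edgeR adjusted p = 0.341). With the smooth muscle score of each horn as a covariate it was 0.25, and without HG horn 13 it was 1.17. It did not pass the unadjusted limit in either case. Wnt9a had 0.768, 1.48 and 2.64 CPM in HG+ORG horns, 2.02, 4.49 and 8.96 CPM in HG horns and 1.36, 2.07 and 5.33 CPM in SHAM horns, while PBS horns had 2.96, 0.606, 0.643, 5.23 and 2.46 CPM. HG+ORG and HG horns overlapped only between 2.02 and 2.64 CPM, and the log2 fold between them was -1.67 (SE 0.51; edgeR adjusted p = 0.273), or -0.77 with the smooth muscle covariate.

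Wnt11, a ligand of the β-catenin-independent branch, was the least steady ligand. It had 3.96, 5.53 and 69.6 CPM in HG+ORG horns, 0.627, 7.84 and 179.6 CPM in HG horns, 6.67, 143, 5.87, 0.858 and 3.94 CPM in PBS horns and 0.247, 7.86 and 49.5 CPM in SHAM horns. Single horns in every group stood high: HG+ORG horn 22, HG horns 14 and 17, PBS horn 8 and SHAM horns 5 and 6 had 39.5 CPM or more, and the other 17 horns had at most 9.53 CPM. No comparison of Wnt11 reached an unadjusted p under 0.05. The remaining ligands Wnt16, Wnt2b and Wnt6 were low, with medians over 23 horns of 3.22, 1.81 and 0.541 CPM, and Wnt6 was at a count of 0 in 3 horns.

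Of the 9 Frizzled receptors, Fzd4 and Fzd5 passed the unadjusted limit, in HG+ORG over HG alone. Fzd4, a receptor of blood vessel endothelium among other cells, had 3.11, 6.91 and 16.8 CPM in HG+ORG horns, 5.82, 24.5 and 60.8 CPM in HG horns and 4.53, 12.5 and 16.7 CPM in SHAM horns. PBS horns had 34.0, 5.52, 2.81, 21.8 and 6.90 CPM. In 4 of 6 HG horns Fzd4 exceeded the highest SHAM horn, and the log2 fold of HG+ORG over HG was -1.63 (SE 0.59; edgeR adjusted p = 0.317). Without HG horn 12 that fold was -1.17 and no longer passed the unadjusted limit. The endothelial marker score, over 8 genes, was -0.45 to 5.39 in HG+ORG horns with a median of 1.42, and 2.68 to 6.19 with a median of 5.00 in HG horns, and its part in the Fzd4 values was not tested. The log2 fold of Fzd5 was -0.81 (SE 0.38; edgeR adjusted p = 0.501), and -0.44 without HG horn 14. The most abundant receptors, Fzd6 and Fzd10, ranged from 8.79 to 644 CPM and from 4.21 to 219 CPM over the 23 horns, with HG+ORG horn 18 at the bottom of both. Fzd1 ran from 41.0 to 231 CPM, Fzd2 from 16.3 to 91.4, Fzd3 from 6.44 to 59.3, Fzd8 from 5.07 to 40.8 and Fzd7 from 7.48 to 49.3 CPM. Of these 7 receptors, including Fzd6 and Fzd10, none had an unadjusted p under 0.05 in any comparison.

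The co-receptors LRP5 and LRP6 carry the canonical signal together with Frizzled. Lrp5 had 37.6, 105 and 190.1 CPM in HG+ORG horns, 56.9, 86.9 and 109 CPM in HG horns, 95.5, 112, 95.8, 120.1 and 105 CPM in PBS horns and 115, 127 and 294 CPM in SHAM horns. All 6 HG horns lay below the lowest SHAM horn, and so did 4 of 5 PBS and 4 of 6 HG+ORG horns. The log2 fold of HG over SHAM was -0.84 (SE 0.28; edgeR adjusted p = 0.265) and that of the injured horns over SHAM -0.61 (SE 0.22; edgeR adjusted p = 0.64). SHAM horn 3 alone stood at 294 CPM where the next SHAM horn had 130.2 CPM, and without it these folds were -0.53 and -0.31. With the epithelial score as a covariate they were -0.49 and -0.34.

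Lrp6 was nearly level in all horns. It had 62.6, 79.5 and 81.5 CPM in HG+ORG horns, 68.6, 84.7 and 93.9 CPM in HG horns, 86.2, 107, 93.4, 92.4 and 86.2 CPM in PBS horns and 75.9, 86.5 and 104 CPM in SHAM horns. All 6 HG+ORG horns lay below all 5 PBS horns, which 0.107% of features showed, and the log2 fold was small, -0.28 (SE 0.11; edgeR adjusted p = 0.727). Without PBS horn 8 it was -0.23.

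R-spondins are secreted proteins that bind LGR4 to LGR6 and so protect Frizzled receptors from removal by ZNRF3 and RNF43. Rspo1 had 1.09, 2.57 and 6.05 CPM in HG+ORG horns, 2.44, 7.90 and 19.6 CPM in HG horns and 2.41, 4.95 and 9.98 CPM in SHAM horns, and PBS horns had 10.3, 0.202, 0.241, 6.35 and 6.97 CPM. Rspo3 had 0.667, 2.88 and 5.06 CPM in HG+ORG horns, 1.84, 5.30 and 18.8 CPM in HG horns and 0.864, 2.09 and 4.66 CPM in SHAM horns, and PBS horns had 7.86, 0.875, 1.77, 12.2 and 4.08 CPM. For both genes HG horns reached highest and the ranges overlapped. The log2 folds of HG+ORG over HG were -1.83 for Rspo1 (SE 0.74; edgeR adjusted p = 0.387) and -1.40 for Rspo3 (SE 0.63; edgeR adjusted p = 0.469). Rspo1 was at -1.52 without HG horn 16 and Rspo3 at -0.84 without HG horn 17, and neither then passed the unadjusted limit. Rspo3 was also higher in HG than in SHAM horns by 1.48 (SE 0.63; edgeR adjusted p = 0.362), or by 0.92 without HG horn 17. With the smooth muscle covariate the folds over all horns turned round, in the same order, to 0.16, 0.15 and -0.14.

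Lgr5 marks stem cells in several epithelia and is high in immature uterine epithelium and glands. It had 2.10, 70.0 and 102 CPM in HG+ORG horns, 1.11, 49.3 and 72.4 CPM in HG horns, 93.5, 72.8, 96.1, 19.0 and 77.0 CPM in PBS horns and 2.47, 85.3 and 106 CPM in SHAM horns. Within each group the horns fell into high and low ones, and no comparison had an unadjusted p under 0.05. Lgr6, a marker of stem cells in skin that also occurs in smooth muscle, was near 0 in most horns. Its HG+ORG horns had 0.0741, 0.289 and 0.682 CPM, its HG horns 0.160, 1.17 and 25.2 CPM, its PBS horns 1.01, 0.135, 0.402, 8.32 and 0.422 CPM and its SHAM horns 0, 0.212 and 1.36 CPM. The high values were those of HG horns 13 and 16, with 18.7 and 25.2 CPM, and of PBS horn 10. These 3 horns had smooth muscle scores of 6.17, 7.49 and 6.58, while HG horn 17, with a score of 6.62, had 1.45 CPM. The log2 fold of HG over SHAM was 4.45 (SE 1.26; edgeR adjusted p = 0.248), 0.72 with the smooth muscle covariate and 3.59 without HG horn 16. That of HG+ORG over HG was -4.61 (SE 1.26; edgeR adjusted p = 0.27), -1.01 with the covariate and -3.77 without HG horn 16. The fold of HG+ORG over PBS, -2.70 (SE 1.23; edgeR adjusted p = 0.809), was -0.67 without PBS horn 10. That of all injured horns over SHAM was 2.27 (edgeR adjusted p = 0.64), or 1.60 without PBS horn 10. It missed the unadjusted limit in 14 of 23 fits with 1 horn left out.

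Secreted Frizzled-related proteins bind WNT ligands outside the cell. Sfrp4 had 0.419, 1.36 and 11.6 CPM in HG+ORG horns, 2.26, 10.1 and 18.7 CPM in HG horns, 10.8, 0, 0.161, 16.8 and 1.48 CPM in PBS horns and 0.512, 0.767 and 0.987 CPM in SHAM horns. The SHAM horns lay close together, every HG horn was above all of them, and 12 of 17 injured horns were above the highest SHAM horn while 4 were below the lowest. PBS horn 8 had a count of 0, which allows up to 0.202 CPM (3 counts, counting error only). The log2 fold over SHAM was 3.80 for HG (SE 1.10; edgeR adjusted p = 0.248), 2.47 for HG+ORG (SE 1.06; edgeR adjusted p = 0.435) and 2.94 for PBS (SE 1.09; edgeR adjusted p = 0.9995). For all injured horns it was 3.07 (SE 0.99; edgeR adjusted p = 0.64). With the smooth muscle covariate the 4 folds were 1.67, 1.82, 0.55 and 1.35. Without PBS horn 10 the fold of PBS was 2.04, and without HG+ORG horn 21 that of HG+ORG was 1.88, and these no longer passed the unadjusted limit.

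Sfrp2 had 0.373, 2.45 and 21.0 CPM in HG+ORG horns, 0.808, 6.35 and 58.8 CPM in HG horns, 3.59, 0.202, 0.483, 3.09 and 2.11 CPM in PBS horns and 0.247, 1.60 and 4.81 CPM in SHAM horns. Its log2 fold was 2.87 for HG over SHAM (SE 1.02; edgeR adjusted p = 0.273) and 3.00 for HG over PBS (SE 1.10; edgeR adjusted p = 0.991). HG horn 14 held the highest value, and without it these folds were 1.65 and 1.77. Sfrp1 had 6.08, 18.5 and 49.6 CPM in HG+ORG horns, 6.02, 12.7 and 20.0 CPM in HG horns, 16.6, 6.80, 19.2, 13.7 and 18.4 CPM in PBS horns and 4.94, 11.8 and 16.7 CPM in SHAM horns. HG+ORG horn 18 was the highest of all, and 4 of 6 HG+ORG horns exceeded the highest SHAM horn. The log2 fold of HG+ORG over SHAM was 0.92 (SE 0.42; edgeR adjusted p = 0.465), and 0.47 without horn 18. Sfrp5 reached 2.23 CPM at most and was listed at 0 in 7 horns.

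Dickkopf proteins are secreted inhibitors; DKK2 acts on LRP5 and LRP6, while the role of DKK3 in WNT signalling is less settled. Dkk2 had 0.440, 0.504 and 2.85 CPM in HG+ORG horns, 0.959, 3.86 and 14.3 CPM in HG horns, 8.56, 0.202, 0.0804, 13.2 and 1.06 CPM in PBS horns and 0.123, 0.666 and 0.822 CPM in SHAM horns. Every HG horn was above every SHAM horn, and the PBS horns spread from below the SHAM range to far above it. Folds over SHAM on the log2 scale were 3.38 for HG (SE 0.98; edgeR adjusted p = 0.248), 2.94 for PBS (SE 0.99; edgeR adjusted p = 0.9995) and 2.38 for all injured horns (SE 0.87; edgeR adjusted p = 0.64). The log2 fold of HG+ORG was -2.58 over HG (SE 0.94; edgeR adjusted p = 0.328) and -2.13 over PBS (SE 0.96; edgeR adjusted p = 0.807), and that over PBS was -1.24 without PBS horn 10. Without the same horn the fold of PBS over SHAM was 2.05. With the smooth muscle covariate the 5 folds were 1.49, 0.97, 0.98, -1.01 and -0.50.

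Dkk3 had 3.51, 9.09 and 35.0 CPM in HG+ORG horns, 5.17, 7.33 and 293 CPM in HG horns, 14.2, 25.7, 2.01, 14.5 and 3.03 CPM in PBS horns and 1.23, 5.02 and 22.6 CPM in SHAM horns. A single horn, HG horn 14, held 293 CPM. The log2 folds of HG over SHAM, 2.74 (SE 1.04; edgeR adjusted p = 0.306), and of HG over PBS, 2.32 (SE 1.10; edgeR adjusted p = 0.991), were 0.50 and 0.08 without it. That horn had an epithelial score of 7.89, the lowest of the HG horns, and a stromal score of 7.99, the highest of all horns.

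**Figure D3:**
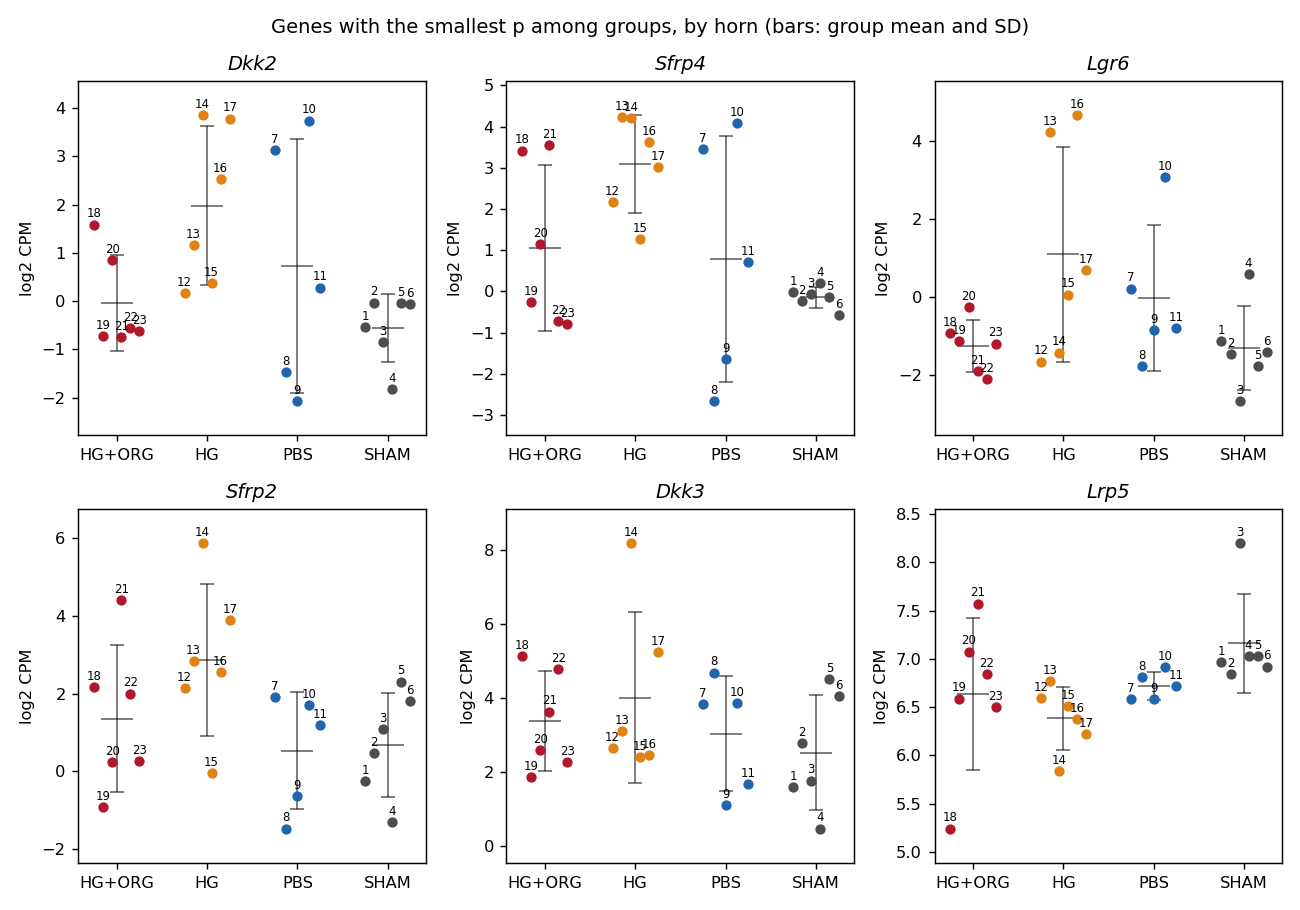
Log2 CPM of Dkk2, Sfrp4, Lgr6, Sfrp2, Dkk3 and Lrp5 in each horn (points, numbered as in the titles) by group, HG+ORG, HG, PBS and SHAM from left to right, with the group mean and SD. The SHAM points of Sfrp4, 0.512 to 0.987 CPM before the log scale, lie below every HG point, and the SHAM points of Lrp5 lie above every HG point.

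Axin2, Znrf3, Rnf43, Notum and Lef1 are classical targets of β-catenin with TCF/LEF: AXIN2 is part of the complex that degrades β-catenin, ZNRF3 and RNF43 are ligases that remove Frizzled receptors, NOTUM strips the lipid from WNT proteins and LEF1 is itself a transcription partner of β-catenin. WIF1 is a secreted protein that binds WNT ligands. Of these 6, only Lef1 had an unadjusted p under 0.05 in any comparison. Axin2 had 5.45, 69.9 and 120.3 CPM in HG+ORG horns, 20.3, 57.2 and 88.2 CPM in HG horns, 103, 60.7, 70.8, 28.1 and 78.0 CPM in PBS horns and 3.70, 72.3 and 90.5 CPM in SHAM horns. The medians of HG+ORG and SHAM horns were close, and the log2 folds of Axin2 lay between -0.34 and 0.32 in all 7 comparisons, each with an SE of at least 0.54, so a change within that error was not detectable here.

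Within groups, by contrast, the feedback genes spread widely, and the same horns were low for several of them. The 7 horns with the least Axin2 were SHAM 3 and 4, PBS 10, HG 13 and 16 and HG+ORG 18 and 21, with at most 28.1 CPM where the next horn had 47.4 CPM. These were also the 7 lowest horns for Znrf3, at most 25.2 CPM where the next had 40.4 CPM, and for Lgr5, at most 19.0 CPM where the next had 31.9 CPM. Of the 7 lowest horns for Notum, Wif1, Lef1, Wnt7a, Fzd2 and Fzd3, 6 belonged to that set, and 5 did for Rnf43 and Fzd10. The set holds horns of all 4 groups. For Lrp6 and Wnt5a only 2 of the 7 lowest horns were shared with it. These sets were picked after the values were seen and carry no test.

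Wif1 showed the widest gap. It was counted 0 times in SHAM horns 3 and 4, HG horn 16 and HG+ORG horn 21, which allows at most 0.296, 0.370, 0.351 and 0.330 CPM (3 counts, counting error only), and stood at 0.279 CPM in HG horn 13, 0.143 CPM in HG horn 14, 1.36 CPM in HG+ORG horn 18 and 2.15 CPM in PBS horn 10. Elsewhere it ran from 4.04 to 66.8 CPM. By group it had 0, 31.9 and 60.3 CPM as lowest, median and highest in HG+ORG horns, 0, 4.81 and 37.7 CPM in HG horns, 23.9, 4.04, 15.9, 2.15 and 23.1 CPM in PBS horns and 0, 20.6 and 66.8 CPM in SHAM horns. Notum had 2.42, 40.1 and 90.9 CPM in HG+ORG horns, 1.60, 13.8 and 51.5 CPM in HG horns, 52.0, 18.5, 68.5, 4.12 and 44.6 CPM in PBS horns and 0.790, 40.5 and 60.3 CPM in SHAM horns. High and low horns of both genes were found in each group.

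Znrf3 had 5.20, 52.6 and 74.8 CPM in HG+ORG horns, 14.3, 40.9 and 61.2 CPM in HG horns, 56.1, 77.4, 59.7, 25.2 and 47.2 CPM in PBS horns and 14.9, 55.8 and 70.2 CPM in SHAM horns. Its close relative Rnf43 spread less, with 9.78, 75.9 and 99.0 CPM in HG+ORG horns, 27.8, 42.6 and 86.8 CPM in HG horns, 67.0, 102, 60.9, 41.4 and 65.9 CPM in PBS horns and 37.6, 78.2 and 80.7 CPM in SHAM horns. For Rnf43, HG+ORG horn 18 lay far below the other horns. Lef1 was low, with 0.330, 2.34 and 4.57 CPM in HG+ORG horns, 0.468, 2.25 and 31.0 CPM in HG horns, 4.97, 0.606, 2.17, 3.43 and 2.39 CPM in PBS horns and 0, 1.98 and 2.87 CPM in SHAM horns. Between HG and SHAM horns Lef1 no longer passed the unadjusted limit without HG horn 14, which held the 31.0 CPM.

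**Figure D4:**
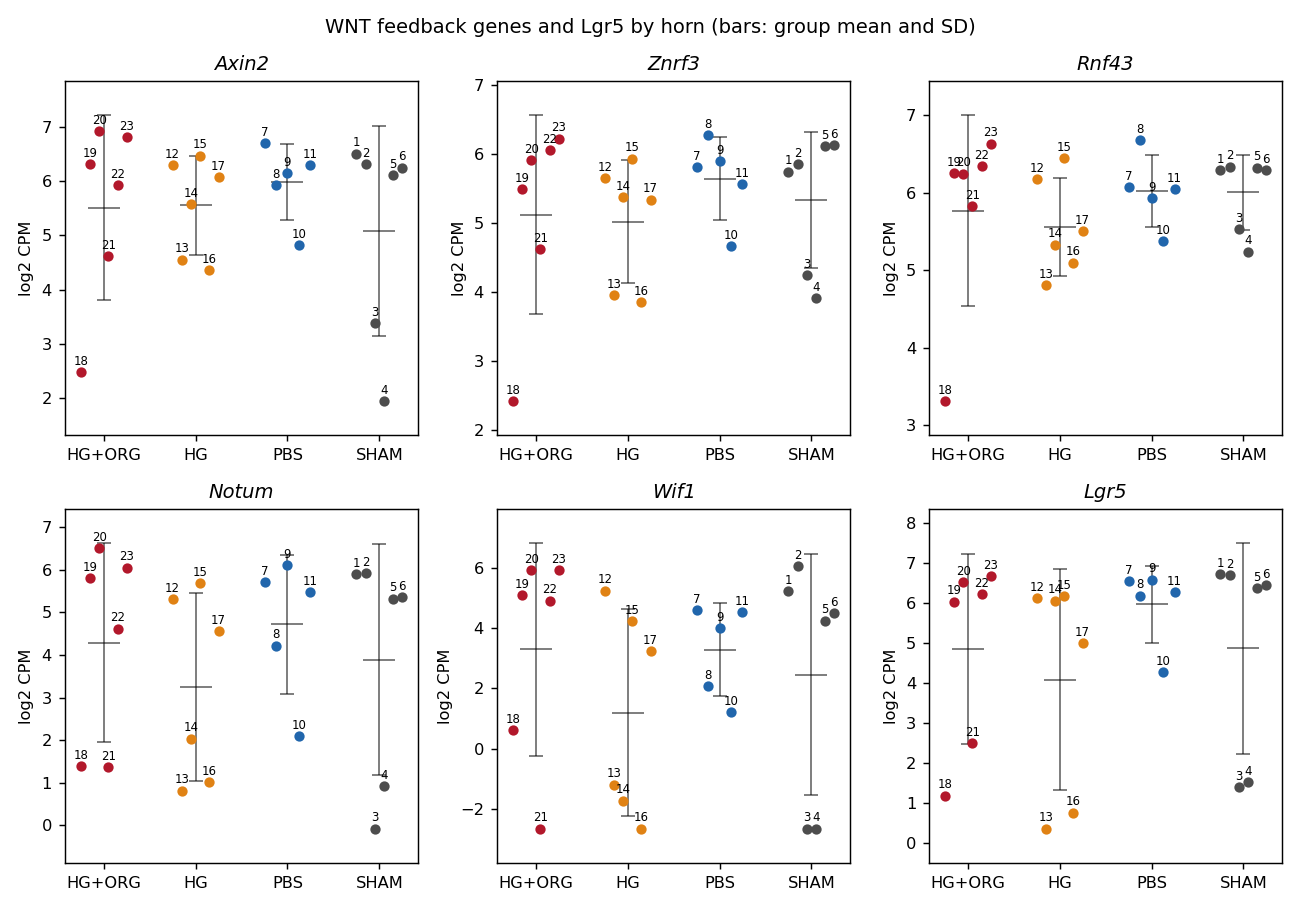
Log2 CPM of 5 feedback genes and Lgr5 in each horn (points, numbered as in the titles) by group, HG+ORG, HG, PBS and SHAM from left to right, with the group mean and SD. Horns 18 and 21 of HG+ORG, 13 and 16 of HG, 10 of PBS and 3 and 4 of SHAM sit at the lower end of their groups for Axin2, Znrf3 and Lgr5.

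Other genes differed along the same horns, and some did not. The TCF target Sp5, another β-catenin-dependent feedback factor, was at most 1.6 CPM in 6 of those 7 horns and 8.6 CPM in HG+ORG horn 21, and at least 3.5 CPM in the other 16 horns. Cxcl15, a gland secretory gene, was at most 5.6 CPM in the 7 horns, but PBS horns 9 and 11 also had 7.4 and 2.0 CPM with Axin2 at 70.8 and 78.0 CPM. Sox9, on the same gland list, went the other way, at 80.0 to 185 CPM in 6 of the 7 horns. It had 48.6 CPM in HG+ORG horn 18 and at most 69.9 CPM in the other 16 horns. Foxa2, also on that list, had 4.6 to 18.7 CPM in the 7 horns and 2.1 to 39.1 CPM in the others. The proliferation gene Mki67 had 1.4 CPM in SHAM horn 3 and 492 CPM in SHAM horn 4. The general epithelial genes Epcam and Krt8 had 1267 to 2760 and 764 to 1728 CPM in 6 of the 7 horns. In the other 16 horns they ran from 553 to 1847 and from 414 to 1343 CPM, so these ranges overlapped. Only HG+ORG horn 18 lay below, at 139.6 and 139 CPM. The gland score, over the 4 of 6 listed genes that were tested, ran from 3.38 to 6.47 in HG+ORG, 3.27 to 6.04 in HG, 3.81 to 6.01 in PBS and 2.98 to 5.94 in SHAM horns, and its part in the feedback values was not tested.

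The 250 bases before the start of Axin2, Wif1 and Wnt11 are shown because Axin2 and Wif1 are feedback genes whose horns spread widely and the Wnt11 window holds a TCF/LEF word. They are RefSeq sequences on build GRCm38.p6, plus strand, at chr11:108920099-108920348, chr10:121033754-121034003 and chr7:98834862-98835111, a build other than the one the counts were made on. Capitals mark a match to CTTTGAT or CTTTGAA on either strand.
Axin2: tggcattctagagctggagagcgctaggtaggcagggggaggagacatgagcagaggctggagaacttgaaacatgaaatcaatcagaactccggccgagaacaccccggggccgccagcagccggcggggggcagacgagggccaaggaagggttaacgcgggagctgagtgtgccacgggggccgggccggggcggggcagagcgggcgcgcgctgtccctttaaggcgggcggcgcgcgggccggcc
Wif1: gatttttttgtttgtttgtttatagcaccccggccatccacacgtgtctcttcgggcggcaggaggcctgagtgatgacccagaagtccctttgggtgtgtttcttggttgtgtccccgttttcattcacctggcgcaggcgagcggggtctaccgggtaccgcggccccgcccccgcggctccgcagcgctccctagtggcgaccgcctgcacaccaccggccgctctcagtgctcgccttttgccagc
Wnt11: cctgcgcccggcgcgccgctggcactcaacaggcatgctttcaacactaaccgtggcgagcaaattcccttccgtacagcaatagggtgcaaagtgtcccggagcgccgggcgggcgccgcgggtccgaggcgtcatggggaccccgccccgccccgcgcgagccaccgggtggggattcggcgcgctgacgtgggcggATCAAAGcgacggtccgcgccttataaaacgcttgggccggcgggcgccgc
The match in Wnt11, ATCAAAG, begins 51 bases before the start. Windows were at hand for 23 of the 38 genes, 30 windows in all counting alternative starts, and 2 of them held a match, 1 of Wnt11 and 1 of Wnt5b. Of all 32851 mouse windows of that length, 2457 (7.48%) did. No match says only that these letters are not in this window.

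Some WNT genes went with the marker scores of the horn, as did a large share of all features. Over the 23 horns, 111 pairs of a WNT gene and an epithelial, stromal or smooth muscle score were computed, and 41 passed a permutation test of Pearson's r after Benjamini-Hochberg adjustment over the 111 pairs. Of these, 9 of 37 genes went up and 10 down with the stromal score, 9 up and 4 down with the smooth muscle score, and 5 up and 4 down with the epithelial score. At an unadjusted permutation p under 0.05, 24 of 37 WNT genes passed with the stromal score, 10 up and 14 down, where 37.1% of all 17708 tested features did, 19.8% up and 17.3% down. For the smooth muscle score 17 passed, 9 up and 8 down, beside 25.9% of all features, 14.6% up and 11.4% down. With the epithelial score 13 passed, 9 up and 4 down, beside 36.4%, of which 17.7% up and 18.7% down, so that count was near the share of all features. The defining gene of the smooth muscle list, Myh11, had 10.8 to 670.2 CPM in HG horns and 5.55 to 16.3 CPM in SHAM horns, so these ranges overlapped. It had 0.471 to 267 CPM in PBS horns and 0.419 to 46.5 CPM in HG+ORG horns. Horns of a group share their treatment and the scores come from the same libraries, so r was also taken with the group means removed and without the 2 horns farthest from the median score.

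Among the antagonists, Sfrp4 and Dkk2 went up with both the stromal and the smooth muscle score, while Sfrp1 passed with neither. These 2 scores shared horns. HG horns 13, 16 and 17 and PBS horn 10 had at least 7.41 for stroma and 6.17 for muscle, and PBS horn 8 was lowest in both. HG horn 14 and HG+ORG horn 18 had 7.99 and 7.83 for stroma but 3.88 and 4.18 for muscle. Which score a gene went with apart from the other was not tested. Sfrp4 had r = 0.88 and rho = 0.79 with the stromal score (permutation p = 1e-05 and 3e-05, adjusted p = 0.000317 and 0.000476), and r = 0.87 with group means removed and 0.83 without the 2 farthest horns. With the smooth muscle score Sfrp4 had r = 0.85 and rho = 0.87 (permutation p = 1e-05 for each, adjusted p = 0.000317 and 0.00037), and r = 0.81 and 0.86 in the 2 checks. Dkk2 had r = 0.82 with each score (permutation p = 1e-05 and 2e-05, adjusted p = 0.000317 for each), with rho = 0.73 and 0.79 (permutation p = 0.00019 and 1e-05, adjusted p = 0.00188 and 0.00037). Its r was 0.83 and 0.80 in the checks for stroma and 0.76 and 0.79 for muscle. Sfrp2 had r = 0.81 and rho = 0.89 with stroma (permutation p = 2e-05 and 1e-05, adjusted p = 0.000317 and 0.00037; checks 0.75 and 0.78). Rspo3 had r = 0.83 and rho = 0.83 with smooth muscle (permutation p = 2e-05 for each, adjusted p = 0.000317 and 0.000444; checks 0.80 and 0.80). The smallest p these permutations can give is 1e-05.

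The lowest r with the stromal score were those of Fzd10, Rnf43 and Wnt7a, while the receptor Fzd4 went up with both scores and Lgr6 with the smooth muscle score. Fzd10 had r = -0.68 and rho = -0.75 with stroma (permutation p = 0.00036 and 7e-05, adjusted p = 0.0025 and 0.000863; checks -0.60 and -0.74). Rnf43 had r = -0.65 and rho = -0.66 with stroma (permutation p = 0.00067 and 0.00088, adjusted p = 0.00438 and 0.00514; checks -0.63 and -0.69), and Wnt7a had r = -0.64 and rho = -0.77 (permutation p = 0.00094 and 3e-05, adjusted p = 0.0058 and 0.000476; checks -0.60 and -0.64). With smooth muscle the lowest values were those of Rnf43 (r = -0.56, rho = -0.68), Fzd1 (r = -0.55, rho = -0.44) and Znrf3 (r = -0.52, rho = -0.63), with permutation p = 0.0047, 0.00712 and 0.0109 for r and 0.00063, 0.0342 and 0.00156 for rho. Their adjusted p were 0.0186, 0.0257 and 0.0337 for r, and 0.00388, 0.0715 and 0.00825 for rho. In the 2 checks r was -0.57 and -0.54 for Rnf43, -0.44 and -0.42 for Fzd1, and -0.58 and -0.50 for Znrf3. The relations of Fzd1 and Znrf3 no longer passed without the 2 farthest horns (adjusted p = 0.123 and 0.0653), nor did Fzd1 with group means removed.

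With the epithelial score Lrp5 went up most closely, r = 0.85 and rho = 0.50 (permutation p = 2e-05 and 0.0146, adjusted p = 0.000317 and 0.0386; checks 0.87 and 0.71), followed by Wnt7b, r = 0.75 and rho = 0.58 (permutation p = 0.00108 and 0.00506, adjusted p = 0.00631 and 0.0165; checks 0.76 and 0.44). Fzd8 had r = 0.68 and rho = 0.21 (permutation p = 0.00412 and 0.339, adjusted p = 0.0176 and 0.464), and its r became -0.24 without the 2 farthest horns, so that relation rested on them. Dkk3 had r = -0.66 and rho = -0.79 (permutation p = 0.00216 and 4e-05, adjusted p = 0.00999 and 0.000555; checks -0.63 and -0.61). Wnt5b had r = -0.55 and rho = -0.43 (permutation p = 0.00489 and 0.0407, adjusted p = 0.0187 and 0.0807; checks -0.54 and -0.33). Without the 2 farthest horns Wnt7b and Wnt5b no longer passed (adjusted p = 0.0875 and 0.215), though r kept its direction for both. Lef1 had r = -0.52 and rho = -0.45 (permutation p = 0.0158 and 0.0314, adjusted p = 0.0428 and 0.071; checks -0.47 and -0.69), and it no longer passed with group means removed.

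**Figure D5:**
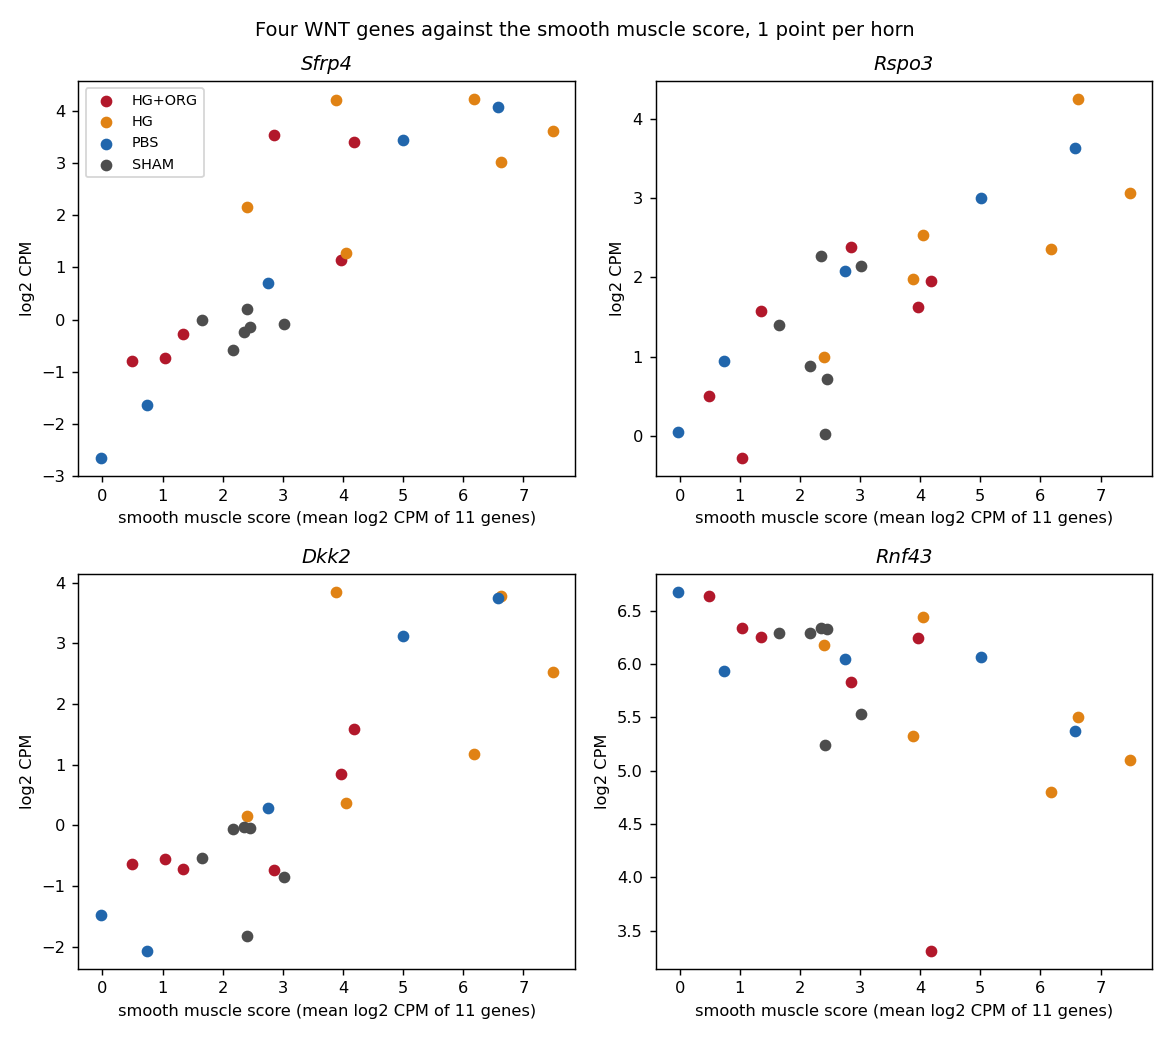
Log2 CPM of Sfrp4, Rspo3, Dkk2 and Rnf43 (y axes) against the score of 11 smooth muscle markers, averaged as log2 CPM (x axes), 1 point per horn coloured by group. Sfrp4, Rspo3 and Dkk2 run upward over the 23 horns (r = 0.85, 0.83 and 0.82) and Rnf43 downward (r = -0.56), with most HG horns and PBS horns 7 and 10 toward the right.

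Of 58 further pathway genes, the secretion, destruction complex, transcription and planar polarity components, 55 were tested and edgeR called 0 in every comparison. Between HG and SHAM horns 9 were higher and 2 lower at an unadjusted p under 0.05, beside 11.3% of all features. The 4 with the smallest p were Apc2, a relative of the scaffold APC (log2 fold 1.36, SE 0.40), Frzb, a further secreted Frizzled-related antagonist (3.45, SE 1.11), Pygo1, a co-activator of β-catenin (2.57, SE 0.94), and the planar polarity gene Prickle1 (1.34, SE 0.50). With the smooth muscle covariate these folds were 1.61, 1.31, 0.90 and 1.51, and Prickle1 was at 0.68 without HG horn 14. Between HG+ORG and HG horns 2 were higher and 3 lower, beside 9.81%, led by Trabd2b, which inactivates WNT proteins (-1.71, SE 0.49), the kinase Gsk3a (0.34, SE 0.10), the adhesion receptor Cd44 (2.57, SE 0.91) and Prickle2 (-2.05, SE 0.79). These 4 folds were -0.90, 0.37, 3.07 and -0.56 with the smooth muscle covariate, and Prickle2 was at -1.31 without HG horn 17.

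Cd44 rested on a single horn. It had 1210.5 CPM in HG+ORG horn 18 and 23.7 to 40.0 CPM in the other HG+ORG horns, against 15.9 to 66.9 CPM in HG, 8.60 to 38.5 CPM in PBS and 2.67 to 37.0 CPM in SHAM horns. Without horn 18 its log2 fold was -0.33 over HG, 0.48 over PBS and 0.39 over SHAM. Between HG+ORG and SHAM horns Cd44, Frzb and the co-repressor Tle4 were higher at the unadjusted limit and Ctnnb1, which encodes β-catenin, was lower (3.27, 2.82, 1.32 and -0.57, with SE 0.94, 1.10, 0.56 and 0.25), beside 9.91% of all features. The smooth muscle covariate gave 2.62, 1.96, 1.09 and -0.57 for them. Without horn 18 Frzb, Tle4 and Ctnnb1 were at 0.72, 0.08 and -0.42. Between HG+ORG and PBS horns Cd44 (3.37, SE 1.02) and Gsk3a (0.34, SE 0.11) were higher, beside 6.09%. Between HG and PBS horns the glypican Gpc3 was higher (1.69, SE 0.74), and Axin1 (-0.28, SE 0.13) and the WNT secretion factor Wls (-0.68, SE 0.32) were lower, beside 3.37%. The covariate gave 1.44, -0.24 and -0.28 for these 3 genes. Without PBS horn 8 Gpc3 was at 1.38 and Wls at -0.54, and without HG horn 16 Axin1 was at -0.23. None of the 3 genes passed the unadjusted limit with that horn left out. Over all injured horns against SHAM, 4 were higher, namely Apc2 (0.92, SE 0.35), Frzb (2.49, SE 0.99), Tle4 (1.05, SE 0.49) and Prickle1 (0.90, SE 0.42), and 1 lower, Ctnnb1, beside 5.99% of all features higher and 1.59% lower. With the covariate the first 4 were at 1.02, 0.98, 0.66 and 0.98. Without horn 18 Frzb was at 1.80 and Tle4 at 0.63. Between PBS and SHAM horns 0 of the 55 passed at the unadjusted limit, beside 2.17% of all features.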

How the data were processed

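Poly(A) RNA of 23 horns was sequenced as stranded single-end reads of 75 cycles on a NextSeq, per the labels' protocols. The authors deposited raw read counts per gene for 18682 features. Per the submitters' processing notes, build GRCm39 was used with HISAT2 2.2.1, Subread's featureCounts 2.0.3, SAMtools 1.21, Trimmomatic 0.39, DESeq2 1.42.1 in R 4.3.1, MultiQC 1.27.1 and FastQC 0.11.9. No label or header names the annotation or whether counting used strand, so overlapping and antisense genes may share counts. In the deposited counts every feature reached 10 counts in at least 3 libraries, and 341 features had no symbol.

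From these counts, filterByExpr kept 17708 features and removed 974. Counts were scaled by TMM and fitted with edgeR 4.0.16's quasi-likelihood model (R 4.3.3) over all 4 groups, giving 7 comparisons and a test for any difference among the groups, with Benjamini-Hochberg adjustment over all features. SE is the absolute log2 fold divided by the square root of F. Log2 CPM used a prior count of 2. Levels per kilobase used GENCODE vM21 exon lengths. A cell type score is the mean log2 CPM of a marker list. Correlations used 100000 permutations (Python 3.11.15, numpy 2.4.6, scipy 1.17.1), two-sided. Figures used matplotlib 3.10.9. The fit was tested on simulated data.

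Alternatives were DESeq2 1.42.0, limma-voom (limma 3.58.1), RLE size factors, no filter, the compared groups alone, smooth muscle or epithelial score as a covariate, SHAM horns 5 and 6 as 1 horn, each horn left out, and, chosen after seeing the data, HG horn 14 and HG+ORG horn 18 both left out. Values by horn are given for the 12 WNT genes with the smallest p among the 4 groups and for 18 genes always named. Folds are given for up to 8 WNT genes per comparison at an unadjusted p under 0.05, and correlations for the 3 highest and 3 lowest genes per score. Pathway genes are named up to 4 per comparison. Sp5, Cxcl15, Sox9, Foxa2, Mki67, Esr1 and Cd44's single values were chosen after values were seen. The genes, lists and rules were chosen with earlier results of these data known. The labels count 21 mice and do not tie horns to them.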

Additional observations from a re-analysis of the deposited data

Results flagged for a closer look

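A horn far from the others of its group was looked for in 100 gene and group pairs, the 25 WNT genes described by horn in 4 groups, and 8 were found. Chance marks about 1 in 20 such groups.

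The co-receptors showed 3 of these. Lrp5 was at 8.20 log2 CPM in SHAM horn 3, where the nearest SHAM horn had 7.03. Lrp6 was at 5.97 log2 CPM in HG+ORG horn 18, with the nearest at 6.24, and at 6.10 log2 CPM in HG horn 17, with the nearest at 6.39.

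Among ligands, Wnt7a was at 7.42 log2 CPM in PBS horn 10, below the nearest at 8.28. Wnt7b was at 1.70 log2 CPM in HG horn 14, below the nearest at 4.81. Wnt11 was at 6.12 log2 CPM in HG+ORG horn 22, above the nearest at 3.11.

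Lgr5 was at 4.26 log2 CPM in PBS horn 10, below the nearest at 6.19, and Rnf43 at 3.31 log2 CPM in HG+ORG horn 18, below the nearest at 5.83. PBS horn 10, HG+ORG horn 18 and SHAM horn 3 are among the 7 horns that were lowest for Axin2, Znrf3 and Lgr5.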

How the results depend on the processing

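Calls after adjustment depended on the tool. DESeq2 called 1 feature between PBS and SHAM horns, 281 between HG and SHAM, 83 between HG+ORG and SHAM, 163 between HG+ORG and HG, 5 for all injured horns over SHAM and 278 for any difference, where edgeR called 0 in each. Among WNT genes DESeq2 called 3 for HG over SHAM, 1 for HG+ORG over HG and 2 for any difference. With the compared groups alone, edgeR called 386 features and 2 WNT genes for HG over SHAM. The cause was not tested. Leaving out 1 horn at a time gave 0 called WNT genes in every comparison, and 0 called features except 1 for HG+ORG over HG without PBS horn 10 and 39 for any difference without HG+ORG horn 22.

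Counts of WNT genes at an unadjusted p under 0.05 moved as follows. For PBS over SHAM, where the count was 2, limma-voom gave 0, the smooth muscle covariate 0, and leaving out HG horn 14 and HG+ORG horn 18 together 4. For HG over SHAM (9), limma-voom gave 5 and the smooth muscle covariate 4. For HG+ORG over SHAM (2), RLE gave 4, DESeq2 4, limma-voom 0, the epithelial covariate 1, SHAM horns 5 and 6 as 1 horn 1, and leaving out the named pair 0. For HG over PBS (2), DESeq2 gave 4, limma-voom 5, the epithelial covariate 1 and the compared groups alone 1. For HG+ORG over PBS (3), limma-voom, the smooth muscle covariate and the compared groups alone each gave 1. For injured over SHAM (4), limma-voom gave 1 and the smooth muscle covariate 2. For any difference (7), limma-voom gave 2 and the smooth muscle covariate 0.

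With single horns left out, the counts ran from 1 to 4 for PBS over SHAM (1 without PBS 10, 4 without PBS 8), from 6 to 12 for HG over SHAM, from 0 to 4 for HG+ORG over SHAM (0 without HG+ORG 18, 1 without SHAM 5 or 6, 4 without HG+ORG 21) and from 0 to 6 for HG over PBS (0 without HG 14, 1 without SHAM 2, PBS 9 or PBS 11, 4 without PBS 10, 5 without HG 12, 6 without HG 15). They ran from 1 to 4 for HG+ORG over PBS (1 without PBS 10 or HG+ORG 19, 21 or 23), from 5 to 12 for HG+ORG over HG (5 without HG+ORG 19 or 23), from 2 to 4 for injured over SHAM (2 without SHAM 3) and from 3 to 9 for any difference (3 without HG 14). Correlated pairs ran from 32 to 51, beside 41.

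Directions turned with the smooth muscle covariate for Rspo3 in HG over SHAM (-0.14) and in HG+ORG over HG (0.15) and for Rspo1 in HG+ORG over HG (0.16), and without the 2 farthest horns for Fzd8 with the epithelial score (r = -0.24). The other 922 alternative fold values kept their direction. No paired analysis was possible because the horns' numbers in the titles are not shared between groups. Low genes such as Lgr6, Dkk2, Sfrp5 and Wnt6 are limited by depth.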
